A study of Homo sapiens with 16 samples.

Results

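The genes described here are 35 genes of the unfolded protein response and the integrated stress response, measured by RNA sequencing in 3-dimensional cultures of MCF10DCIS.com cells. They were picked by symbol as genes that serve protein folding in the endoplasmic reticulum (ER) or carry the stress response's ATF4 and CHOP arm. The choice was made with earlier results of these data known. All 35 were found once among the 78894 genes of the deposited table, and all 35 were among the 16790 genes that passed the filter on low counts. They fall into 14 ER chaperones and folding enzymes, 8 ER stress sensors and genes of ER-associated degradation (ERAD), and 13 genes of the ATF4-CHOP arm.

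MCF10DCIS.com is a premalignant human breast epithelial line used as a model of ductal carcinoma in situ. The 4 conditions were the T288P allele of PCSK5 with 250 ng/ml recombinant mature GDF11 throughout (T288P+GDF11), the M452I allele, the T288P allele, and the wildtype allele (WT), with 4 wells each. PCSK5 is a proprotein convertase, an enzyme that cleaves the precursors of secreted proteins, and GDF11 is a TGF-beta family ligand made from such a precursor. All conditions shared a single PCSK5-/- clone, made with a stabilised Cas9 (Shield-1) and a guide against PCSK5, and isolated in medium with GDF11. Each allele is V5-tagged, resistant to the guide, driven by a tetracycline-regulated promoter and represented by 1 polyclonal, hygromycin-selected line. Every well received EGF and matrigel, and 1 µg/ml doxycycline from day 4, and was harvested on day 8. The wells of a condition therefore share a line, and p-values measure the spread between wells only. In bulk RNA, fewer cells of a kind and less RNA per cell cannot be told apart.

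When unfolded proteins accumulate in the ER, 3 membrane sensors respond. IRE1 (ERN1) splices the XBP1 transcript, ATF6 is cleaved to a transcription factor, and PERK (EIF2AK3) phosphorylates eIF2alpha. ATF6 and spliced XBP1 raise transcription of chaperones, folding enzymes and ERAD genes. Phosphorylated eIF2alpha slows translation but favours that of ATF4, whose targets include CHOP (DDIT3), amino acid synthesis genes and PPP1R15A, which directs the phosphatase that reverses the phosphorylation. Other eIF2alpha kinases reach ATF4 without the ER, which is why this arm is called the integrated stress response. The counts cover transcripts only. They do not separate spliced from unspliced XBP1, and they do not measure the translation of ATF4.

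Library totals were 28.5 to 50.8 M counts. The transcript of the construct, PCSK5, stood at 40.8 ± 10.7 CPM in T288P+GDF11, 39.5 ± 19.3 in M452I, 37.7 ± 13.5 in T288P and 45.4 ± 12.04 in WT (SD, n = 4 wells each), where CPM are counts per M counts after TMM scaling. The counts do not separate the alleles. All 8 breast epithelial markers were detected. Their summed level was 3990 to 5210 CPM in T288P+GDF11 wells, 5980 to 8650 in M452I, 5950 to 8220 in T288P and 7140 to 7370 in WT. The 3 leukocyte markers, nearly all of it CD68, summed to 98.5 to 126 CPM in T288P+GDF11 wells, 117 to 230 in M452I, 144 to 211 in T288P and 146 to 213 in WT. The 2 endothelial and 5 fibroblast markers summed to at most 2.74 and 8.43 CPM in any well. COL1A2, PDGFRA, PDGFRB, PTPRC, CD3E and CDH5 of these lists stayed under 1 CPM in every well. COL1A1, DCN and PECAM1 reached 7, 1.24 and 2.74 CPM, each in a T288P+GDF11 well. Of the untreated wells, 2 stood apart from their conditions, M452I replicate 4 and T288P replicate 1, and counts of calls and class medians are given with and without them.

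The stress response genes covered a wide range of levels. Per kilobase of exon, HSPA5 averaged 620.6 ± 117 CPM in WT, HSP90B1 510.7 ± 62.0, and ATF4 337.3 ± 23.1 (SD, n = 4 wells each). DDIT4, an inhibitor of mTORC1, was at 625.6 ± 62.8 CPM per kilobase in WT, and its spread overlapped that of HSPA5. The lowest were VLDLR, a lipoprotein receptor, at 0.832 ± 0.231 CPM per kilobase, and CHAC1, which degrades glutathione, at 1.84 ± 0.379. The mean of a gene was lowest in T288P+GDF11 for 33 of the 35 genes and lowest in WT for the other two, CRELD2 and PSAT1. The highest mean was in M452I for 16 genes, in WT for 15, in T288P for 3 and in T288P+GDF11 for 1. The same ranking was not made over all tested genes, so these counts only describe the list.

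**Figure D1:**
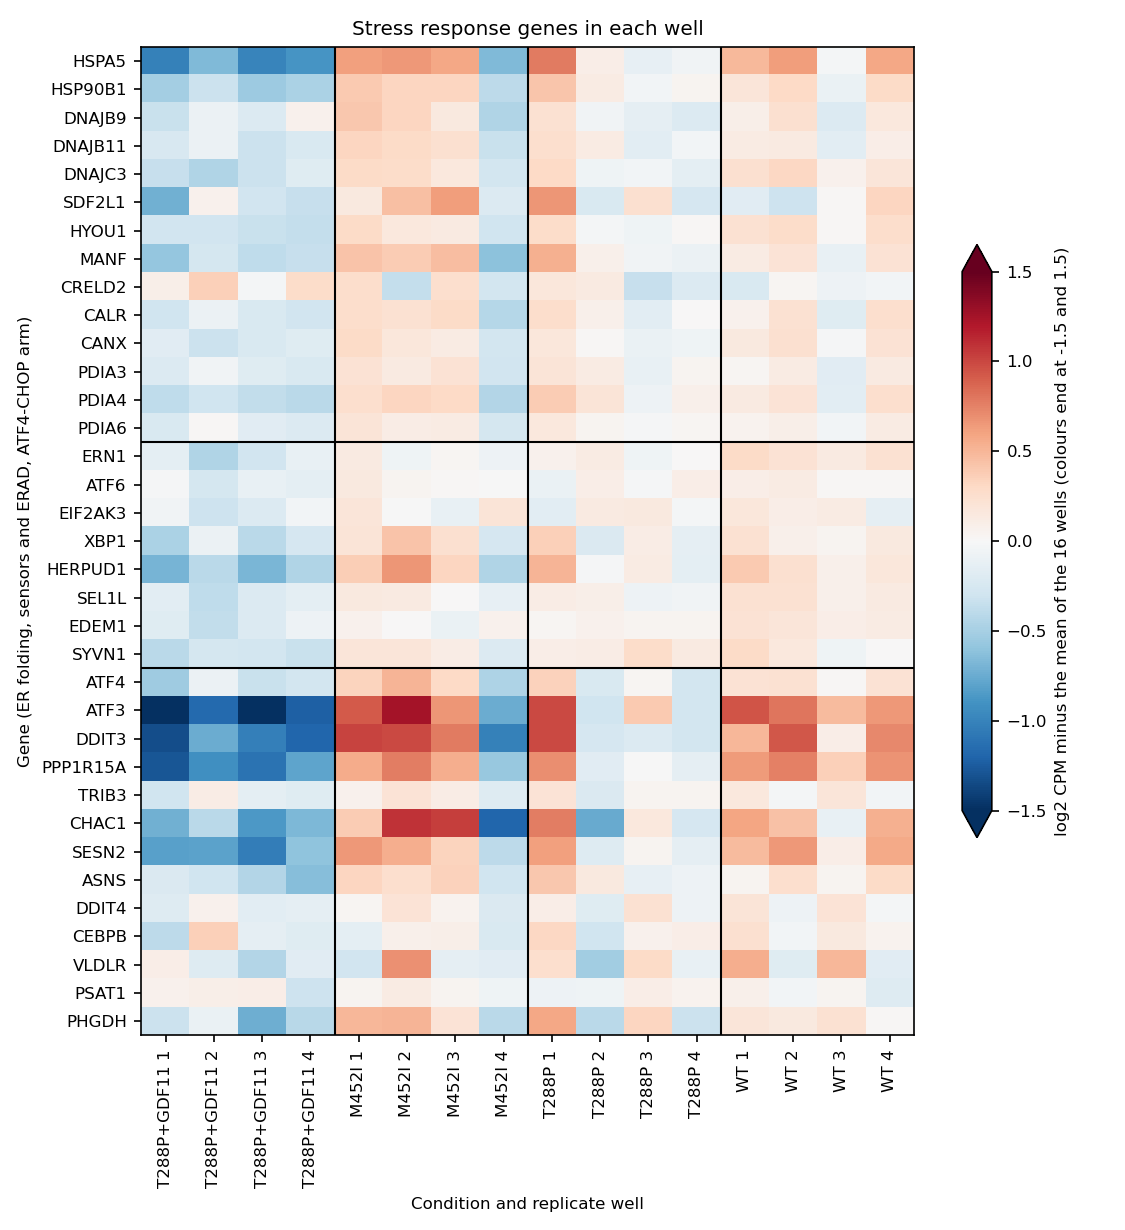
Each row is 1 of the 35 genes and each column 1 well, coloured by log2 CPM minus the gene's mean over the 16 wells; lines separate the 3 gene classes and the 4 conditions. The 4 T288P+GDF11 wells are blue for nearly all rows, as is M452I replicate 4, while T288P replicate 1 is redder than the other T288P wells.

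GDF11 was added to the T288P line to test what the mature ligand changes in cells that carry this allele. Of the 35 genes, 11 fell and 0 rose in T288P+GDF11 against T288P (edgeR quasi-likelihood test, Benjamini-Hochberg adjusted p under 0.05 over all genes). Over all tested genes, 12.9% were called in either direction, 7.88% lower and 5.07% higher. The log2 fold change was below 0 for 34 of the 35 genes, against 51.5% of all tested genes. The 4 and 4 wells did not overlap, with T288P+GDF11 lower, for 17 of the 35, against 11.8% of all tested genes. Because the list was chosen with earlier results of these data known, these shares only describe it. The median log2 fold change was -0.31 for ER folding genes, -0.26 for sensors and ERAD genes and -0.47 for the ATF4-CHOP arm, against -0.01 for all tested genes. Without T288P replicate 1 these medians were -0.20, -0.23 and -0.26, and without both wells that stand apart -0.22, -0.24 and -0.27. Marker sums of other kinds moved with GDF11 too. The 8 epithelial markers summed to 3990 to 5210 CPM in T288P+GDF11 wells, against 5950 to 8220 CPM in T288P wells, mostly KRT17 and KRT5. Not all 8 were lower, since TP63 averaged 30.5 ± 2.11 CPM in T288P+GDF11 and 25.7 ± 5.45 in T288P (SD, n = 4 wells each). The leukocyte sum, nearly all CD68, was 98.5 to 126 CPM in T288P+GDF11 wells, against 144 to 211 in T288P wells. The endothelial sum was 1.44 to 2.74 CPM in T288P+GDF11 wells, against 0.313 to 0.869 in T288P wells. The fibroblast sum was 5.83 to 8.43 CPM in T288P+GDF11 wells, against 3.95 to 5.50 in T288P wells. The part of these marker levels in the results was not tested.

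**Figure D2:**
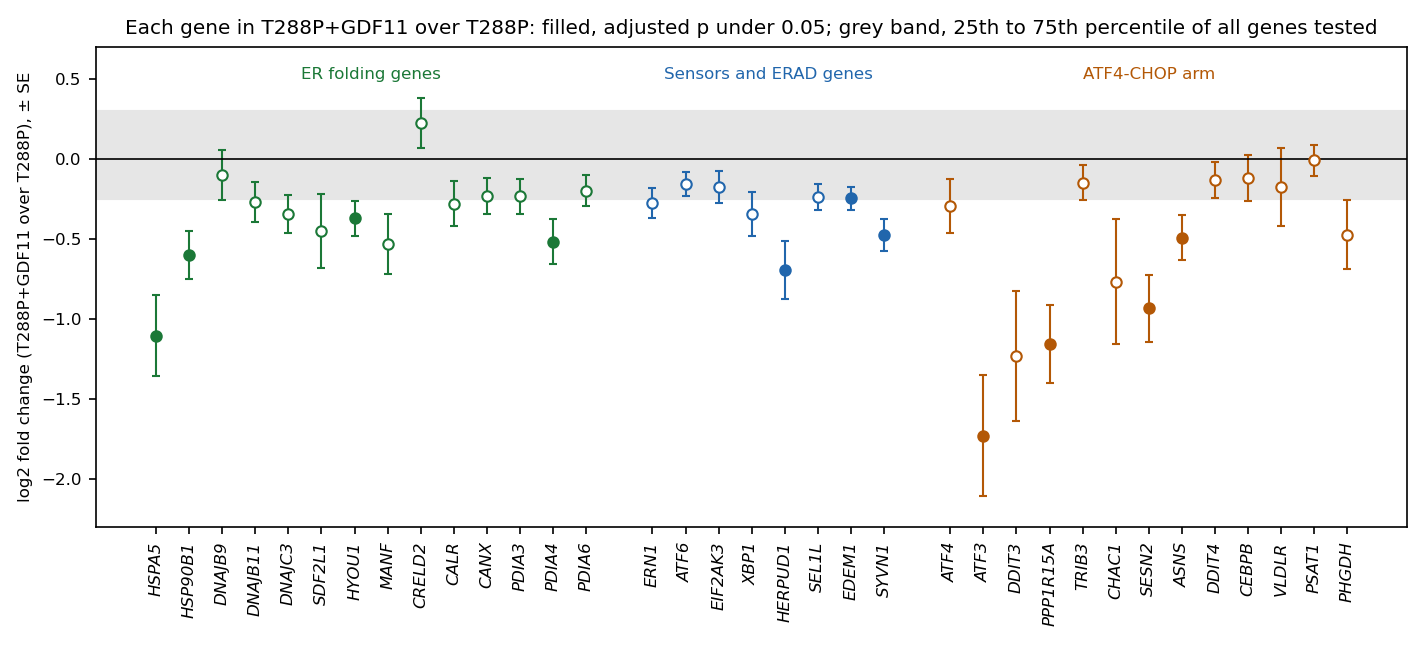
Points are log2 fold changes of T288P+GDF11 over T288P with standard errors (SE) for the 35 genes by class; filled points passed the test, and the grey band spans the 25th to the 75th percentile of all genes tested. ATF3, DDIT3, PPP1R15A and HSPA5 have the lowest values, from -1.73 to -1.10, and CRELD2 alone lies above 0.

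Among the ER folding genes, 4 of 14 fell, 0 rose and 10 did not pass. HSPA5 (ENSG00000044574; chr9:125234853-125241330, minus strand, GRCh38) encodes BiP, the ER's main HSP70 chaperone, which also binds the 3 sensors. Its level was 884, 1135, 901 and 971 CPM in T288P+GDF11 wells, against 3072, 1917, 1644 and 1733 CPM in T288P wells. All treated wells lay below all untreated ones, and T288P replicate 1 was far above the other untreated wells. The log2 fold change was -1.10 (SE 0.25; edgeR adjusted p = 0.00925), and the mean level was 2.15-fold lower.

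The 250 bases before the start site of HSPA5 are shown because they hold the ER stress response element (ERSE), the letters to which ATF6 binds together with the factor NF-Y. The sequence is RefSeq's, from GRCh38.p14 chr9:125241344-125241593, given 5′ to 3′ on the minus strand, with the fixed letters of the element (CCAAT and CCACG with 9 bases of any kind between them) in capitals.
HSPA5: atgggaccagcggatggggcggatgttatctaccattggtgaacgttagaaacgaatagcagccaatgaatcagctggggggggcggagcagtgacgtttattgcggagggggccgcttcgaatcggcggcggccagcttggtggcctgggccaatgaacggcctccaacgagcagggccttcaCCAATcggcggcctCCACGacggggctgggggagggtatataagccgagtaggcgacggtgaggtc

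HSP90B1 (ENSG00000166598; chr12:103930107-103953645, plus strand), the ER's HSP90 chaperone, stood at 1489, 1696, 1456 and 1529 CPM in T288P+GDF11 wells, against 2820, 2299, 2056 and 2186 CPM in T288P wells. The wells did not overlap, and the log2 fold change was -0.60 (SE 0.15; edgeR adjusted p = 0.0139). HYOU1 (ENSG00000149428; chr11:119044189-119057202, minus strand), a large HSP70 relative that exchanges nucleotides for BiP, was at 98.8, 98.4, 95.2 and 93.8 CPM in T288P+GDF11 wells, against 146, 118, 115 and 121 CPM in T288P wells. Its treated wells were the most alike of any gene here, and its log2 fold change was -0.37 (SE 0.11; edgeR adjusted p = 0.0312). PDIA4 (ENSG00000155660; chr7:149003062-149028641, minus strand), a disulfide isomerase, was at 162, 171, 163 and 159 CPM in T288P+GDF11 wells, against 275, 241, 201 and 221 CPM in T288P wells. It fell by 0.52 on the log2 scale (SE 0.14; edgeR adjusted p = 0.0217), without overlap of wells.

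DNAJC3 (ENSG00000102580; chr13:95677139-95794989, plus strand), an ER J-domain co-chaperone of BiP, was at 142, 132, 145 and 159 CPM in T288P+GDF11 wells, against 222, 172, 175 and 163 CPM in T288P wells. The groups did not overlap, but the difference did not pass (log2 fold change -0.34, SE 0.12; edgeR adjusted p = 0.0640). MANF, a secreted factor that binds BiP, had a log2 fold change of -0.53 (SE 0.19) and an edgeR adjusted p of 0.0704. The lectin chaperones CALR and CANX, which hold glycoproteins while they fold, had log2 fold changes of -0.28 and -0.23, and their partner PDIA3 had -0.23. The co-chaperones DNAJB9, DNAJB11 and SDF2L1 and the isomerase PDIA6 lay between -0.45 and -0.10. CRELD2, an ER stress gene that is also secreted, averaged 13.7 ± 1.65 CPM in T288P+GDF11 and 11.7 ± 2.05 in T288P (SD, n = 4 wells each), a log2 fold change of 0.23 (edgeR adjusted p = 0.378). It was the only gene of the 35 with a value above 0 in this comparison.

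Of the 8 sensors and ERAD genes, 3 fell, all from the ERAD machinery, and 0 rose. HERPUD1 (ENSG00000051108; chr16:56932048-56944863, plus strand), a membrane protein that brings ERAD components together, was at 58.0, 71.3, 58.6 and 68.9 CPM in T288P+GDF11 wells, against 134, 93.6, 103 and 85.2 CPM in T288P wells. The wells did not overlap, and its log2 fold change of -0.70 (SE 0.18; edgeR adjusted p = 0.0178) was the lowest of the class. SYVN1 (ENSG00000162298; chr11:65121780-65134533, minus strand), the ERAD ubiquitin ligase HRD1, was at 16.8, 18.5, 18.3 and 17.5 CPM in T288P+GDF11 wells, against 23.7, 24.0, 26.9 and 24.3 CPM in T288P wells. Both sets of wells were tight and apart, and T288P replicate 1 did not stand out (log2 fold change -0.48, SE 0.10; edgeR adjusted p = 0.00601). SYVN1 shares 7.2% of its exon bases with FAU on the same strand, so some of its reads cannot be assigned with certainty. EDEM1 (ENSG00000134109; chr3:5187646-5219957, plus strand), which selects misfolded glycoproteins for degradation, was at 78.9, 69.0, 77.6 and 84.7 CPM in T288P+GDF11 wells, against 91.0, 93.5, 91.9 and 91.8 CPM in T288P wells. The difference was small but without overlap (log2 fold change -0.25, SE 0.07; edgeR adjusted p = 0.0314).

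SEL1L (ENSG00000071537; chr14:81471549-81533861, minus strand), the adaptor of SYVN1, was at 96.4, 82.9, 93.0 and 97.1 CPM in T288P+GDF11 wells, against 116, 114, 102 and 104 CPM in T288P wells. Its log2 fold change of -0.24 (SE 0.08) did not pass (edgeR adjusted p = 0.0627), although the wells did not overlap. The sensor ERN1 (ENSG00000178607; chr17:64039142-64130819, minus strand) was at 17.4, 14.1, 15.9 and 17.9 CPM in T288P+GDF11 wells, against 20.1, 21.0, 18.4 and 19.4 CPM in T288P wells. It did not pass either (log2 fold change -0.28, SE 0.09; edgeR adjusted p = 0.0605), again without overlap. XBP1 (ENSG00000100219; chr22:28794555-28800597, minus strand) was at 83.2, 110, 87.5 and 97.3 CPM in T288P+GDF11 wells, against 149, 100, 125 and 105 CPM in T288P wells. Its wells overlapped, and it did not pass (log2 fold change -0.34, SE 0.14; edgeR adjusted p = 0.104). ATF6 and EIF2AK3, the other two sensors, had log2 fold changes of -0.16 and -0.18 and did not pass.

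The ATF4-CHOP arm held the lowest fold changes, with 4 of 13 genes lower and 0 higher. ATF3 (ENSG00000162772; chr1:212565334-212620777, plus strand), a stress-induced transcription factor, was at 22.4, 33.2, 23.4 and 31.8 CPM in T288P+GDF11 wells, against 148, 60.3, 98.1 and 61.4 CPM in T288P wells. The highest treated well was below the lowest untreated one, and the level was 3.32-fold lower, with a log2 fold change of -1.73 (SE 0.38; edgeR adjusted p = 0.0101). PPP1R15A (ENSG00000087074; chr19:48872392-48876057, plus strand), the stress-induced eIF2alpha phosphatase subunit, was at 49.7, 64.1, 56.5 and 70.0 CPM in T288P+GDF11 wells, against 197, 108, 121 and 111 CPM in T288P wells. It was 2.23-fold lower without overlap (log2 fold change -1.16, SE 0.25; edgeR adjusted p = 0.00691). SESN2 (ENSG00000130766; chr1:28259527-28282491, plus strand), an inhibitor of mTORC1 that senses leucine, was at 10.1, 10.2, 8.58 and 11.7 CPM in T288P+GDF11 wells, against 27.4, 15.5, 18.2 and 16.1 CPM in T288P wells. No wells overlapped, and the log2 fold change was -0.93 (SE 0.21; edgeR adjusted p = 0.00736).

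ASNS (ENSG00000070669; chr7:97852118-97872542, minus strand), asparagine synthetase, was at 50.3, 47.4, 43.1 and 37.5 CPM in T288P+GDF11 wells, against 77.5, 64.3, 53.7 and 55.1 CPM in T288P wells. The wells did not overlap (log2 fold change -0.49, SE 0.14; edgeR adjusted p = 0.0290), but 44.6% of the exon bases of ASNS are shared with AC079781.5 on the same strand, so reads cannot be assigned with certainty. DDIT3 (ENSG00000175197; chr12:57516588-57521737, minus strand), which encodes CHOP, was at 14.6, 22.1, 18.2 and 16.2 CPM in T288P+GDF11 wells, against 73.6, 31.2, 32.0 and 30.6 CPM in T288P wells. No wells overlapped, T288P replicate 1 stood far above the other T288P wells, and the difference did not pass (log2 fold change -1.23, SE 0.41; edgeR adjusted p = 0.0631). DDIT3 shares 27.2% of its exon bases with MARS, listed as MARS1 in the deposited table, on the opposite strand.

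ATF4 itself (ENSG00000128272; chr22:39519695-39522685, plus strand) was at 520, 705, 596 and 620 CPM in T288P+GDF11 wells, against 960, 641, 770 and 621 CPM in T288P wells. These wells overlapped, and the transcript did not pass (log2 fold change -0.29, SE 0.17; edgeR adjusted p = 0.275). TRIB3 (ENSG00000101255; chr20:362835-397559, plus strand), a pseudokinase induced by ATF4 and CHOP, was at 82.5, 110, 91.3 and 89.0 CPM in T288P+GDF11 wells, against 117, 87.5, 105 and 104 CPM in T288P wells. Its log2 fold change was -0.15 (SE 0.11; edgeR adjusted p = 0.396), above the median of the arm. Of the others, CHAC1 had -0.77 (SE 0.39) and PHGDH, the first enzyme of serine synthesis, -0.47 (SE 0.22), neither past the test. PSAT1, the next enzyme of that route, had -0.01, and DDIT4, the transcription factor gene CEBPB and VLDLR lay between -0.17 and -0.12.

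**Figure D3:**
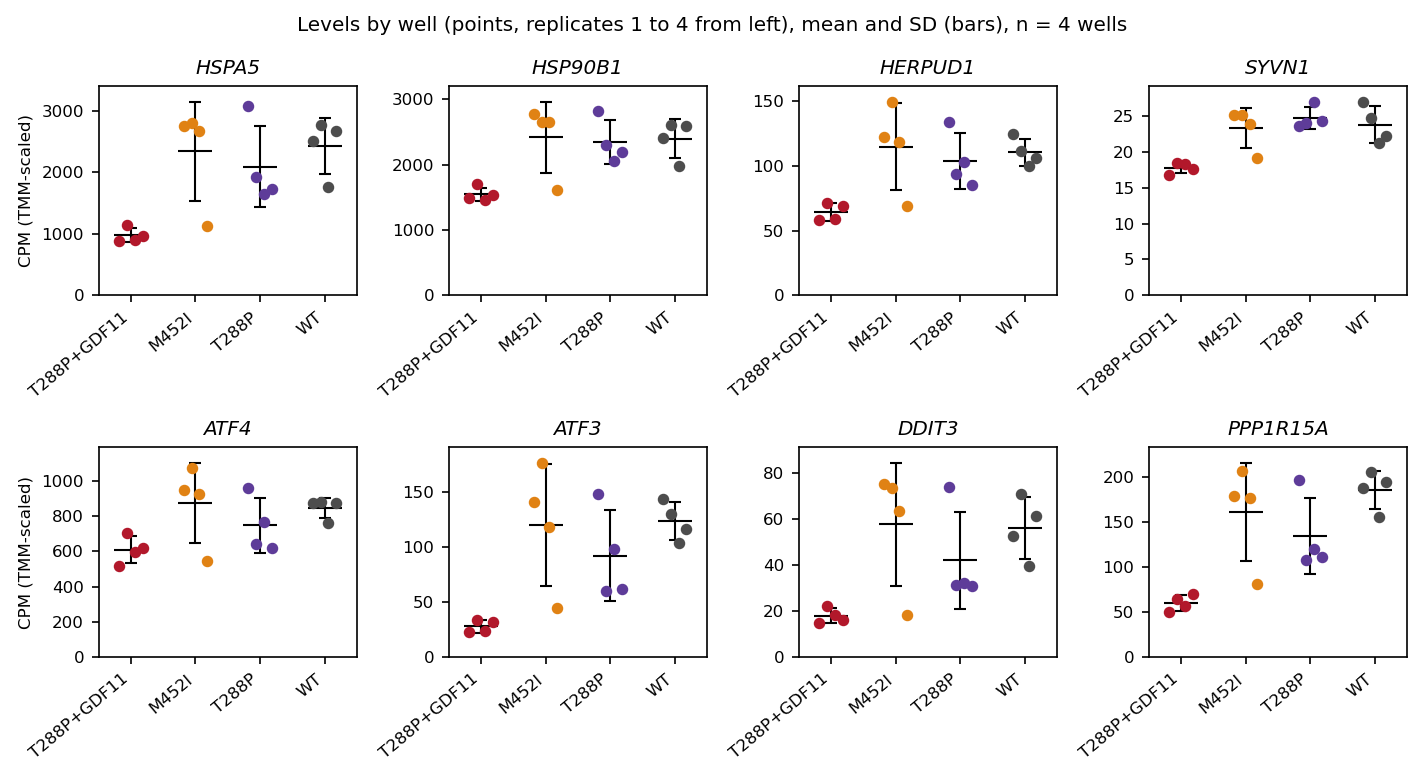
Points are CPM in single wells for 8 genes in the 4 conditions, with the mean and SD (n = 4 wells) as bars. For HSPA5, HSP90B1, HERPUD1, SYVN1, ATF3, DDIT3 and PPP1R15A the T288P+GDF11 wells lie below all T288P wells, while for ATF4 they overlap; M452I replicate 4, the rightmost M452I point, is the lowest of its condition in all 8 panels.

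The number of genes called in T288P+GDF11 against T288P rested in part on single wells. It was 5 without T288P replicate 1, 7 without T288P+GDF11 replicate 1 and 6 without T288P+GDF11 replicate 3. The share of all tested genes called fell in these fits too, from 12.9% in the main test to 5.91%, 6.92% and 7%. SYVN1, ATF3, PPP1R15A and SESN2 were called under all 16 alternatives tried, and HSPA5 under all but the one with no filter on low counts (edgeR adjusted p = 0.0622). The calls of HERPUD1 (0.0641), HYOU1 (0.0733) and EDEM1 (0.202) were lost there too, and that of EDEM1 also in the model of only the 2 groups (0.0801), as edgeR adjusted p. HSP90B1 was lost without T288P replicate 1 (edgeR adjusted p = 0.0664). HERPUD1 was lost without that well (0.0818), without T288P+GDF11 replicate 1 (0.0606) or without T288P+GDF11 replicate 3 (0.0587), as edgeR adjusted p. ASNS was lost without T288P replicate 1 (0.139) or 2 (0.0662), or without T288P+GDF11 replicate 3 (0.0797) or 4 (0.0852). PDIA4 was lost without T288P replicate 1 (0.0987) or 2 (0.0528), or without T288P+GDF11 replicate 1 (0.0606), 3 (0.0602) or 4 (0.0512). HYOU1 was lost in 6 of the 8 fits that leave out 1 well (all but T288P replicates 2 and 3), with edgeR adjusted p from 0.0568 to 0.146, and EDEM1 in 7 of 8 (all but T288P+GDF11 replicate 4), with 0.0611 to 0.109. Without T288P replicate 1 and M452I replicate 4, 14 genes were lower, where 13.7% of all genes were called, with DDIT3 (log2 fold change -0.81, SE 0.17; edgeR adjusted p = 0.00480), MANF and DNAJC3 added to the 11. M452I replicate 4 is in neither condition of this comparison and enters it only through the model shared by all conditions. Leaving out T288P replicate 1 alone gave the 5 above.

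The promoters of several of these genes hold letters to which the stress factors bind, and these are shown to let the members that moved be compared. RefSeq windows of 250 bases before to 50 after the start site (GRCh38.p14) were at hand for 34 of the 35 genes, PDIA3 being the exception. The motifs were searched on both strands as ERSE (CCAAT, 9 bases of any kind, CCACG), its relative ERSE-II (ATTGG, 1 base of any kind, CCACG), and the composite element CARE (TGATG, 1 base of any kind, AA), bound by ATF4 with a C/EBP partner. ERSE was in 7 of 34 (20.6%), against 0.0916% of the 27305 genes with a window. ERSE-II was in 3 of 34 (8.82%), against 0.0696%, and CARE in 4 of 34 (11.8%), against 4.46%, counted per gene throughout. The genes were picked as members of these pathways, so these shares are not independent of how the list was made. Sites are given for genes called lower in T288P+GDF11 against T288P, 5′ to 3′ on the gene's strand with 5 flanking bases on each side. Fixed letters are in capitals, and read as the reverse complement where the element runs against the gene. Positions before the start refer to RefSeq's start sites, which can differ from GENCODE's gene bounds given above.
HSPA5 ERSE, chr9:125241391-125241409, minus strand: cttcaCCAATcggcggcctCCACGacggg
HSP90B1 ERSE, chr12:103930216-103930234, plus strand: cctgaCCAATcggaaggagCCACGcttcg
HSP90B1 second ERSE, against the gene, chr12:103930321-103930339, plus strand: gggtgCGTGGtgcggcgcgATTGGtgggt
HYOU1 ERSE-II, against the gene, chr11:119057274-119057284, minus strand: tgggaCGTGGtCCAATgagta
HYOU1 second ERSE-II, against the gene, chr11:119057380-119057390, minus strand: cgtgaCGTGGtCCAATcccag
HERPUD1 ERSE-II, chr16:56932025-56932035, plus strand: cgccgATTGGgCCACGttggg
HERPUD1 CARE, against the gene, chr16:56931966-56931973, plus strand: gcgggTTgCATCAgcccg
ATF3 CARE, chr1:212565216-212565223, plus strand: caggaTGATGgAAggctg
ASNS CARE, chr7:97872469-97872476, minus strand: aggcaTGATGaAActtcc

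HERPUD1 was the one gene of the 35 with both an ERSE-type element and a CARE. The same elements stood before genes that did not pass in T288P+GDF11 against T288P. The letters before CRELD2, CALR and CANX are given for contrast.
CRELD2 ERSE, against the gene, chr22:49918554-49918572, plus strand: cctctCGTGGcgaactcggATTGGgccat
CALR ERSE, against the gene, chr19:12938384-12938402, plus strand: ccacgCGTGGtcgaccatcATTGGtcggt
CANX ERSE, chr5:179698778-179698796, plus strand: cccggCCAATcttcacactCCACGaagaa

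XBP1, PDIA6 (ERSE), SDF2L1 (ERSE-II) and CHAC1 (CARE) complete the list. Of the 10 genes with ERSE or ERSE-II, 4 fell in T288P+GDF11 against T288P, with a median log2 fold change of -0.36. Of the 11 ER folding, sensor and ERAD genes without either, 3 fell, with a median of -0.27. Of the 4 genes with CARE, 3 fell, with a median of -0.73, and of the 10 ATF4-CHOP genes without it 2 fell, with a median of -0.23. The CARE set includes HERPUD1, an ERAD gene also counted with ERSE-II, so these 2 sets differ in class too. The ranges overlapped (-1.10 to 0.23 with ERSE or ERSE-II and -0.53 to -0.10 without). Those for CARE overlapped as well (-1.73 to -0.49 with it and -1.23 to -0.01 without), and no test was made. A match is a run of letters and does not show binding, and no match covers only this window.

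The M452I line was set against WT to test what this substitution, called a hypomorph by the series, changes. None of the 35 genes was called (0 by edgeR, DESeq2 and limma-voom), where edgeR called 0.0238% of all genes. At an unadjusted edgeR p under 0.05 there was 1, ERN1, against 6.3% of all genes. Median log2 fold changes were 0.02 for ER folding genes, -0.02 for sensors and ERAD genes and -0.01 for the ATF4-CHOP arm, against 0.03 for all tested genes. Without M452I replicate 4 they were 0.17, -0.02 and 0.10, and the ATF4-CHOP median was -0.10 without M452I replicate 2. ERN1 was at 21.1, 18.4, 19.6 and 18.3 CPM in M452I wells, against 23.6, 22.5, 21.2 and 22.6 CPM in WT wells. It and EDEM1, at 93.1, 89.3, 83.2 and 93.4 CPM in M452I wells, against 104, 102, 96.0 and 97.4 CPM in WT wells, were the 2 genes of the 35 whose wells did not overlap, where 2.31% of all genes were lower without overlap. Neither passed (log2 fold change -0.21, SE 0.09, and -0.15, SE 0.07; edgeR adjusted p = 0.780 and 0.793).

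In most of the genes named below, M452I replicate 4 lay apart from 3 higher M452I wells. HSPA5 was at 2753, 2807, 2671 and 1133 CPM in M452I wells, against 2502, 2764, 1759 and 2677 CPM in WT wells. HSP90B1 was at 2775, 2653, 2643 and 1610 CPM in M452I wells, against 2408, 2611, 1983 and 2589 CPM in WT wells. For both chaperones, M452I replicate 4 was below every WT well, and WT replicate 3 was the lowest WT well. DDIT3 was at 74.9, 73.3, 63.4 and 18.3 CPM in M452I wells, against 52.4, 70.8, 39.5 and 61.1 CPM in WT wells. ATF4 was at 952, 1073, 927 and 545 CPM in M452I wells, against 875, 883, 761 and 873 CPM in WT wells. The 3 other M452I wells of ATF4 lay above every WT well, and those of DDIT3 lay within or above the WT range.

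ATF3 showed the same split, with 141, 176, 118 and 44.5 CPM in M452I wells, against 144, 130, 103 and 116 CPM in WT wells. For PPP1R15A the values were 179, 207, 177 and 81.6 CPM in M452I wells, against 189, 206, 156 and 194 CPM in WT wells. In SESN2 they were 27.8, 25.95, 22.5 and 13.5 CPM in M452I wells, against 24.7, 27.9, 19.1 and 26.3 CPM in WT wells. The wells of these targets overlapped through the 3 higher M452I wells. HERPUD1 was at 122, 150, 118 and 68.8 CPM in M452I wells, against 124, 111, 99.9 and 106 CPM in WT wells. XBP1 was at 133, 156, 138 and 97.6 CPM in M452I wells, against 136, 122, 119 and 129 CPM in WT wells. SYVN1 was at 25.1, 25.1, 23.9 and 19.2 CPM in M452I wells, against 27.0, 24.7, 21.2 and 22.2 CPM in WT wells. All of these overlapped as well, with log2 fold changes between -0.21 and 0.06.

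SEL1L was at 119, 118, 108 and 98.6 CPM in M452I wells, against 126, 126, 113 and 118 CPM in WT wells. HYOU1 was at 147, 134, 132 and 97.4 CPM in M452I wells, against 141, 145, 121 and 144 CPM in WT wells. PDIA4 was at 250, 263, 259 and 155 CPM in M452I wells, against 231, 244, 189 and 251 CPM in WT wells. M452I replicate 4 was again the lowest of the 8 wells for each. DNAJC3 was at 220, 218, 201 and 150 CPM in M452I wells, against 213, 223, 188 and 205 CPM in WT wells. ASNS was at 73.0, 69.7, 73.9 and 47.2 CPM in M452I wells, against 59.8, 69.3, 59.9 and 71.0 CPM in WT wells. TRIB3 was at 106, 117, 109 and 89.0 CPM in M452I wells, against 113, 98.9, 115 and 98.5 CPM in WT wells. None of these differences passed.

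T288P set against WT gave 0 calls by edgeR, DESeq2 and limma-voom among the 35 genes, where edgeR called 0.0417% of all genes. At an unadjusted edgeR p under 0.05 there were 0, against 8.49% of all genes. Log2 fold changes were below 0 for 27 of the 35, against 46.6% of all genes. Their medians were -0.02 for ER folding genes, -0.08 for sensors and ERAD genes and -0.18 for the ATF4-CHOP arm, against 0.02 for all tested genes. Without T288P replicate 1 they were -0.11, -0.13 and -0.29. The ATF4-CHOP median was -0.07 and -0.10 without T288P replicates 2 and 4, and -0.09 and -0.10 without WT replicates 1 and 3. The lowest value was that of PPP1R15A, -0.47 (SE 0.24; edgeR adjusted p = 0.614), followed by ATF3 at -0.43 (SE 0.36; edgeR adjusted p = 0.811) and DDIT3 at -0.42 (SE 0.40; edgeR adjusted p = 0.836). In PPP1R15A the T288P wells were 197, 108, 121 and 111 CPM, against 189, 206, 156 and 194 CPM in WT wells, so that 3 T288P wells lay below all WT wells and replicate 1 among them. HSPA5 had a log2 fold change of -0.21 (SE 0.25; edgeR adjusted p = 0.881) and ATF4 one of -0.18 (SE 0.17; edgeR adjusted p = 0.834). Without overlap of wells there were 2 genes, again ERN1 and EDEM1, both lower, where 2.94% of all genes were lower without overlap. Both comparisons used the same WT wells.

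M452I against T288P also gave 0 calls among the 35 genes (0 by edgeR, DESeq2 and limma-voom), where edgeR called 0.00596% of all genes. At an unadjusted edgeR p under 0.05 there were 0, against 2.18% of all genes. Median log2 fold changes were 0.07 for ER folding genes, 0.03 for sensors and ERAD genes and 0.15 for the ATF4-CHOP arm, against 0.01 for all tested genes. They were 0.21, 0.02 and 0.32 without M452I replicate 4, 0.13, -0.03 and 0.34 without T288P replicate 1, and 0.29, 0.01 and 0.52 without both. Without M452I replicate 1 or 2, or T288P replicate 2 or 4, the ATF4-CHOP median lay between 0.05 and 0.10. CHAC1 had the highest value, 0.50 (SE 0.38), at 4.29 ± 2.33 CPM in M452I and 3.07 ± 1.42 in T288P (SD, n = 4 wells each). DDIT3 followed at 0.46 (SE 0.40) and ATF3 at 0.39 (SE 0.36). These misses do not show that the alleles act alike, since the spread within both lines was wide.

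**Figure D4:**
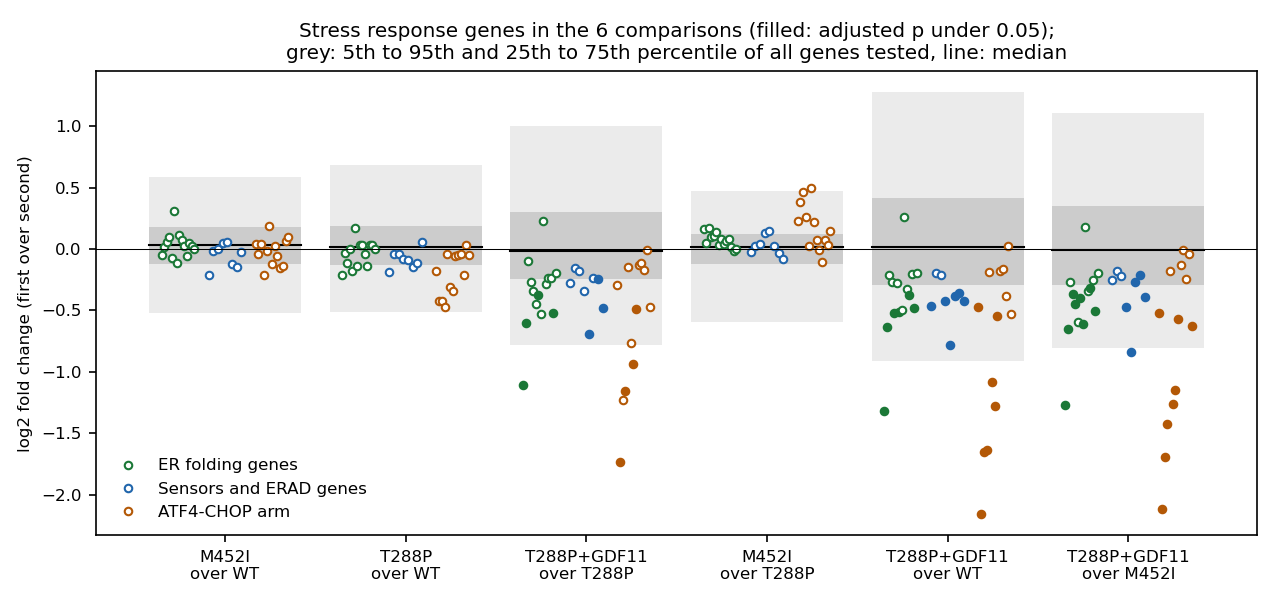
Points are log2 fold changes of the 35 genes in the 6 comparisons, first-named condition over second, filled where the test was passed; grey boxes span the 5th to 95th and the 25th to 75th percentiles of all genes tested and the line is their median. Filled points appear in the 3 comparisons of T288P+GDF11, all below 0, and in none of the comparisons among alleles.

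The allele comparisons depended on the wells that stand apart. M452I replicate 4 was the lowest of its condition for 31 of the 35 genes, where it was the lowest for 34.5% of all tested genes. Its median log2 difference from the mean of the other M452I wells was -0.63 over ER folding genes, -0.17 over sensors and ERAD genes and -0.81 over the ATF4-CHOP arm, against 0.05 over all genes. It lay below all WT wells for 31 of the 35 genes, and within the range of the T288P+GDF11 wells for 16, below it for 10 and above it for 9. T288P replicate 1 was the highest of its condition for 27 of the 35 genes, all 14 ER folding genes among them, against 31.4% of all tested genes. It lay above all T288P+GDF11 wells for 30 genes and above all WT wells for 21. Ribosomal protein genes took 12.9%, 12.7%, 13.0% and 9.29% of counts in M452I wells and 12.3%, 11.1%, 10.7% and 11.1% in T288P wells. M452I replicate 4 was the lowest of its condition by a wide gap there, and T288P replicate 1 the highest of its condition by a smaller one. The ribosomal share was 10.7%, 12.5%, 11.5% and 10.9% in T288P+GDF11 wells and 10.2%, 11.3%, 10.2% and 11.7% in WT wells. Its part in the results was not tested.

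**Figure D5:**
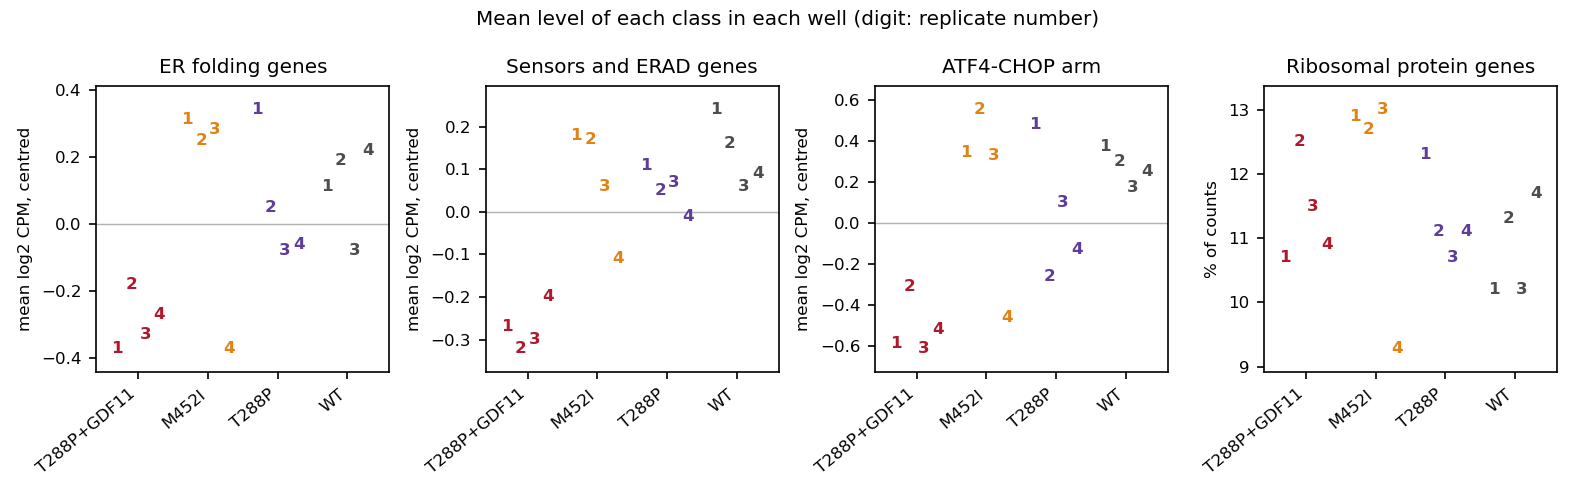
The first 3 panels give the mean log2 CPM of each gene class in each well, centred on the 16 wells, and the fourth the share of counts from ribosomal protein genes; digits are replicate numbers. M452I replicate 4 lies at -0.37 for ER folding genes, as low as T288P+GDF11 replicate 1, and T288P replicate 1 at 0.34, the highest of the 16 wells.

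Without those 2 wells, a choice made after seeing the data, some genes were called between untreated lines. Against T288P, 16 genes were higher in M452I and 0 lower, where 14.1% of all genes were called. Of the 16, 7 were ER folding genes, 2 sensors or ERAD genes and 7 of the ATF4-CHOP arm. DDIT3 had a log2 fold change of 1.18 (SE 0.18; edgeR adjusted p = 0.00164), ATF3 of 0.99 (SE 0.23; edgeR adjusted p = 0.0156), HSPA5 of 0.64 (SE 0.14; edgeR adjusted p = 0.00744) and ATF4 of 0.54 (SE 0.10; edgeR adjusted p = 0.00249). Against WT, 4 genes were lower in T288P, PPP1R15A (-0.72, SE 0.11; edgeR adjusted p = 0.00117), DDIT3 (-0.84), SESN2 (-0.56) and DNAJC3 (-0.29), where 4.06% of all genes were called. In M452I against WT, MANF alone was higher (0.31, SE 0.09; edgeR adjusted p = 0.0484), where 3.72% were called. Leaving out any single well gave 0 calls in each of these 3 comparisons by edgeR. The 2 wells were chosen for standing apart in most of these same genes, M452I replicate 4 low and T288P replicate 1 high. Leaving them out raises M452I and lowers T288P in those genes by construction. These calls therefore describe the remaining wells only.

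T288P+GDF11 was also set against WT, with 19 of the 35 genes lower and 0 higher, where 28.9% of all genes were called, 15.1% lower and 13.8% higher. These were 6 ER folding genes, 6 sensors and ERAD genes and 7 genes of the ATF4-CHOP arm, with medians of -0.35, -0.40 and -0.53 over the classes against 0.02 over all genes. The wells did not overlap for 22 genes, all with T288P+GDF11 lower, against 17.4% of all genes. ATF3 averaged 27.7 ± 5.57 CPM in T288P+GDF11 and 123 ± 17.4 in WT (SD, n = 4 wells each), with a log2 fold change of -2.16 (SE 0.38; edgeR adjusted p = 0.00114), which is 4.45-fold lower. DDIT3 was 3.14-fold lower, at 17.8 ± 3.22 CPM in T288P+GDF11 against 56.0 ± 13.3 CPM in WT (edgeR adjusted p = 0.00882), and PPP1R15A 3.10-fold lower, at 60.1 ± 8.85 CPM in T288P+GDF11 against 186 ± 21.3 CPM in WT (edgeR adjusted p = 0.000249). ERN1 (log2 fold change -0.46, SE 0.09; edgeR adjusted p = 0.00141), SEL1L (-0.39, SE 0.08; 0.00201) and XBP1 (-0.42, SE 0.14; 0.0266) also passed here. ATF4 passed too (-0.48, SE 0.17; edgeR adjusted p = 0.0446). Of the 19 calls, 14 held under all 16 alternatives. The call of PDIA4 was lost without WT replicate 2 or 4, that of CANX without either of these or T288P+GDF11 replicate 2, and that of XBP1 without T288P+GDF11 replicate 1 or 3 or WT replicate 1, 2 or 4, with edgeR adjusted p from 0.0567 to 0.0904 in these fits. The calls of CHAC1 and ATF4 were each lost in 7 of the 8 fits that leave out 1 well (all but WT replicate 3 for CHAC1 and all but T288P+GDF11 replicate 2 for ATF4), with edgeR adjusted p up to 0.110 and 0.133.

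Against M452I, T288P+GDF11 had 21 genes lower and 0 higher, where 21.2% of all genes were called, 12.9% lower and 8.27% higher. The 21 were 8 ER folding genes, 5 sensors and ERAD genes and 8 of the ATF4-CHOP arm. Wells that did not overlap were fewer here, 7 genes, against 9.97% of all genes. They were ERN1, ATF6, SEL1L, SYVN1, ATF3, PPP1R15A and SESN2. ATF3 was 4.34-fold lower, at 27.7 ± 5.57 CPM in T288P+GDF11 and 120 ± 55.8 in M452I (SD, n = 4 wells each; edgeR adjusted p = 0.00257), and HSPA5 2.41-fold lower, at 973 ± 114 CPM in T288P+GDF11 against 2341 ± 807 CPM in M452I (edgeR adjusted p = 0.00301). The count was 28 without M452I replicate 4, and 8, 8 and 9 without M452I replicates 1, 2 and 3, and it was 13 and 12 without T288P+GDF11 replicates 1 and 3. HSPA5, HSP90B1, HERPUD1, ATF3, DDIT3, PPP1R15A, SESN2 and ASNS were called under all 16 alternatives. The 3 comparisons share the T288P+GDF11 wells, so they are not independent. In them 11 genes were called each time, 22 in at least 1, and 13 in none: DNAJB9, SDF2L1, CRELD2, CALR, PDIA3, PDIA6, ATF6, EIF2AK3, TRIB3, DDIT4, CEBPB, VLDLR and PSAT1.

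Further genes of the same pathways were called in both directions. Of 38 other ER stress genes, 36 were tested, and 3 rose and 0 fell in T288P+GDF11 against T288P, with a median log2 fold change of -0.02, where 5.07% of all genes were called higher and 7.88% lower. SPCS3, a signal peptidase subunit, averaged 128 ± 11.9 CPM in T288P+GDF11 and 88.5 ± 11.5 in T288P (SD, n = 4 wells each), a log2 fold change of 0.54 (SE 0.10; edgeR adjusted p = 0.00274). DNAJC10, an ER J-domain disulfide reductase, rose by 0.42 (SE 0.11; edgeR adjusted p = 0.0159), and MBTPS2, the protease that completes the cleavage of ATF6, by 0.38 (SE 0.12; edgeR adjusted p = 0.0417), both on the log2 scale. Of 40 other integrated stress genes, 39 were tested, and 1 rose and 5 fell, with a median of -0.13, against the same shares of all genes. PPP1R15B, the constitutive counterpart of PPP1R15A, averaged 94.8 ± 4.06 CPM in T288P+GDF11 and 142 ± 22.1 in T288P (SD, n = 4 wells each; log2 fold change -0.59, SE 0.12; edgeR adjusted p = 0.00462). YARS1 and MARS1, genes of tRNA synthetases, fell by 0.41 and 0.35 on the log2 scale (SE 0.09 and 0.08; edgeR adjusted p = 0.00498 and 0.00547). Against M452I, 2 and 3 of the other ER stress genes were higher and lower in T288P+GDF11, and 1 and 11 of the other integrated stress genes. Of all genes, 8.27% were called higher and 12.9% lower there. Against WT, 8 and 2 of the other ER stress genes were higher and lower in T288P+GDF11, and 4 and 9 of the other integrated stress genes, where 13.8% of all genes were called higher and 15.1% lower. PSPH, the last enzyme of serine synthesis, was higher by 1.97 (SE 0.31; edgeR adjusted p = 0.000194) on the log2 scale in T288P+GDF11 against WT. It stood at 3.95 ± 0.916 CPM in T288P+GDF11 and at a low 0.997 ± 0.392 in WT (SD, n = 4 wells each). This comparison differs in both allele and GDF11, and their parts were not separated. Neither list had a call in the comparisons among alleles by edgeR. At an unadjusted edgeR p under 0.05 there were 1 other ER stress gene and 1 other integrated stress gene for M452I against WT. There were 4 and 5 for T288P against WT, and 0 and 0 for M452I against T288P. The shares of all genes were 6.3% and 8.49% in the first 2 of these comparisons. Calls by other tools were not counted for these lists.

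The spread between wells differed by class. The median coefficient of variation was 10.7% in T288P+GDF11, 19.3% in M452I, 14.3% in T288P and 9.20% in WT over the 35 genes, against 14.1%, 21.0%, 17.6% and 14.1% over all tested genes in the same conditions. It was widest for the ATF4-CHOP arm in M452I, at 26.4%, and in T288P, at 24.7%, and narrowest for sensors and ERAD genes in WT, at 5.55%. In 10 of the 35 genes, some exon bases also belong to a second tested gene, which lies on the opposite strand for 8 and on the same one for 2. The shared part exceeds 20% for ASNS, DDIT3 and PDIA6, and whether the counting used strand is not stated.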

How the data were processed

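Poly(A) RNA of 16 wells was sequenced as paired ends. The submitters' processing notes name GRCh38, HISAT2 without a version, and StringTie 2.2.1. For the counting step, the annotation release and the use of strand, the sources used here give nothing. The deposited table holds the authors' whole-number counts per gene, not normalized, and 0 of its columns were left unused. Counts of 1 and 2 were about equally frequent (ratio 0.974 to 1.10), so mates may have been counted separately. No wells of a condition agreed within sampling noise.

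Computed here, in R 4.3.3: edgeR 4.0.16 with TMM, filterByExpr (minimum count 10) and robust quasi-likelihood F tests on all 16 libraries without covariates, adjusted by Benjamini-Hochberg over 16790 genes, which held 99.89% to 99.95% of counts. Genes were called at an adjusted p under 0.05. The SE is the absolute log2 fold change over the square root of F. DESeq2 1.42.0, limma-voom (limma 3.58.1), RLE, other filters, a 2-group model, a replicate block and leaving out wells were alternatives. Coordinates are GENCODE 29 (GRCh38). CPM without reference to length are not compared between genes.

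The genes and lists were chosen with earlier results of these data known. Values in every well are given for up to 5 called genes of each class with the smallest adjusted p, and for HSPA5, HSP90B1, XBP1, HERPUD1, ATF4, DDIT3, ATF3, ASNS and TRIB3. Up to 3 called genes of smallest adjusted p are named for each further list.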

Additional observations from a re-analysis of the deposited data

Results flagged for a closer look

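In a condition of 4 wells, a well was set apart by Dixon's criterion when its gap to the nearest of the others exceeded 0.829 of the range. This held for 14 of the 140 values of a gene in a condition, where chance gives about 5%. Of these, 7 were low values of M452I replicate 4. HSPA5 was at 1130 CPM there, against 2670 to 2810 CPM in the other M452I wells, and HSP90B1 at 1610 CPM, against 2640 to 2770. DNAJB11 was at 84.7 CPM (others 126 to 134), MANF at 59.5 (119 to 126) and CALR at 456 (718 to 750). PDIA4 was at 155 CPM (250 to 263) and ASNS at 47.2 (69.7 to 73.9). In T288P replicate 1, DDIT3 was high at 73.6 CPM, against 30.5 to 32.0 CPM in the other T288P wells, and PPP1R15A at 197 CPM, against 108 to 120. WT replicate 3 was low for DNAJB11 at 96.3 CPM (others 114 to 118), HYOU1 at 121 (141 to 145) and ATF4 at 761 (873 to 882). VLDLR was high in M452I replicate 2, at 10.8 CPM (5.44 to 6.07), and PSAT1 low in T288P+GDF11 replicate 4, at 27.7 CPM (36.0 to 36.9).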

How the results depend on the processing

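No called gene changed direction under any alternative. Of 816 refitted fold changes of called genes, 656 stayed past the threshold and 160 did not. The number of the 35 genes called in T288P+GDF11 against T288P was 16 by DESeq2, 12 by limma-voom and 7 without the low-count filter, and 5 to 10 when 1 well was left out. Against WT it stayed within 1.5 times the 19 of the main test, at 14 to 18 when 1 well was left out. Against M452I it was 12 without the filter and 9 with only the 2 groups modelled, and 8 to 28 when 1 well was left out. Without both outlying wells, chosen after seeing the data, it was 14, 26 and 29 in these 3 comparisons, and 1 for M452I against WT, 4 for T288P against WT and 16 for M452I against T288P, which gave 0 under every other alternative, 0 to 0 when 1 well was left out. The cause was not tested. Without both wells, the share of all tested genes called was 13.7% for T288P+GDF11 against T288P. It was 3.72% for M452I against WT, 4.06% for T288P against WT and 14.1% for M452I against T288P. Wells with the same number did not pair (correlations -0.266 to 0.263 over 24 pairs, 3 of 16 wells closest to their own number). With the replicate block, 11, 18 and 17 genes were called in the comparisons of T288P+GDF11 with T288P, WT and M452I, and 0 in the other three. The block fit called 10.9% of all tested genes in the comparison with T288P. CHAC1, at a mean under 5 CPM in each condition, rests on few counts. Its SE was wide in T288P+GDF11 against T288P (0.391), but so was that of DDIT3 (0.406), which had more counts.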

Other observations

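The 35 genes together took 0.879% to 0.965% of the counts in T288P+GDF11 wells, 0.919% to 1.21% in M452I wells, 1.06% to 1.27% in T288P wells and 1.07% to 1.25% in WT wells. The T288P+GDF11 wells lay below all T288P and all WT wells in this share, and M452I replicate 4 was the M452I well at the low end. CHAC1, which degrades glutathione, was at 1.71, 2.14, 1.54 and 1.77 CPM in T288P+GDF11 wells, at 3.78, 6.20, 5.99 and 1.21 CPM in M452I wells, at 4.96, 1.67, 3.24 and 2.40 CPM in T288P wells, and at 4.39, 3.92, 2.65 and 4.19 CPM in WT wells. M452I replicate 4 was thus the lowest of the 16 wells for CHAC1, below all T288P+GDF11 wells. MANF, a secreted factor that binds BiP, was at 61.1, 76.3, 70.2 and 72.2 CPM in T288P+GDF11 wells, at 123, 119, 126 and 59.5 CPM in M452I wells, at 133, 96.8, 88.4 and 86.3 CPM in T288P wells, and at 99.7, 105, 84.4 and 106 CPM in WT wells. The T288P+GDF11 wells of MANF lay below all T288P and WT wells, and M452I replicate 4 lay below them.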
